A study of Mus musculus with 12 samples.

Results

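The 10 genes described here, Glul, Axin2, Lgr5, Tbx3, Oat, Cyp2e1, Cyp1a2, Cyp2a5, Rnf43 and Slc1a2, are hepatocyte genes that depend on Wnt signals around the central vein. They were chosen by name from the 20093 genes that both deposited count tables list (23391 genes are in either table), and all 10 were present in both tables. Bulk RNA-seq was measured in 12 mouse liver libraries, 3 in each of 4 groups: chow WT, chow HuRHep-/-, HFCF WT and HFCF HuRHep-/-. All mice were C57BL/6N males of 4 to 6 months with floxed Elavl1 alleles (HuR flox/flox), including the WT controls. By the labels, HuRHep-/- mice were given AAV8-Tbg-Cre, an adeno-associated virus that expresses Cre from the hepatocyte promoter Tbg, and WT mice were given AAV8-Tbg-null. The study's methods describe a different cross, with Cre driven by the albumin promoter, and the groups used here are those of the labels. Chow livers came from mice kept on normal chow, and HFCF livers from mice fed for 16 weeks a diet with 40 kcal% fat, 2% cholesterol and 20 kcal% fructose. The study counts its untreated livers by mouse. For the HFCF livers the labels do not say whether each replicate was a separate mouse, so p-values there measure the spread between libraries. No member was used to form the groups.

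Total counts ran from 30071731 to 35949203 per library, and no pair of libraries held identical counts. Elavl1, the gene targeted in HuRHep-/- mice, went against the labels: it was at 30.9, 29.3 and 31 CPM (reads relative to library size, adjusted with TMM factors) in chow WT and 42.8, 39.2 and 38.8 in chow HuRHep-/- (log2 fold change 0.41, limma adjusted p = 0.0219). In HFCF livers it was at 23.9 to 27 CPM in WT and 32.4 to 34.2 in HuRHep-/- (log2 fold change 0.38, adjusted p = 0.0327). A count over the whole gene does not separate the floxed part from the rest. HuRHep-/- below therefore means the libraries labelled HuRHep-/-. Hepatocyte markers were detected in every library, with 7 of 8 listed genes found under their names and none of the 7 at 0. Their summed level was 93200 to 115000 CPM in chow WT, 78000 to 84200 in chow HuRHep-/-, 65200 to 71600 in HFCF WT and 60200 to 64400 in HFCF HuRHep-/-.

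The liver lobule is zoned between the portal tract and the central vein. Endothelial cells of the central vein secrete Wnt ligands and R-spondins, which stabilize beta-catenin in the neighbouring hepatocytes, where it acts with TCF/LEF factors on its target genes. Wnt-dependent pericentral hepatocytes capture ammonia as glutamine and carry much of the cytochrome P450 system, while portal hepatocytes carry urea synthesis and gluconeogenesis. Axin2, Lgr5 and Rnf43 belong to the pathway itself, Tbx3 is a transcription factor of pericentral hepatocytes, Slc1a2, Glul and Oat handle glutamate and its relatives, and Cyp2e1, Cyp1a2 and Cyp2a5 are xenobiotic-metabolizing P450 enzymes.

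The members spanned a wide range of expression. Per kilobase of annotated exon, Cyp2e1 was highest in chow WT livers, at 4180 ± 220 CPM per kb (SD, n = 3), followed by Cyp2a5 (493 ± 70.8), Cyp1a2 (361 ± 30.0), Oat (299 ± 40.2) and Glul (249 ± 2.31). Slc1a2 (11.5 ± 0.243), Tbx3 (4.95 ± 1.59), Rnf43 (3.22 ± 0.585), Axin2 (1.08 ± 0.141) and Lgr5 (0.307 ± 0.085) were far lower on the same scale. In that order only Cyp1a2 and Oat, and Tbx3 and Rnf43, had overlapping mean ± SD intervals among neighbours. Glul took the fifth place in chow WT and the second in chow HuRHep-/- (452 ± 74.5 CPM per kb), where its interval overlapped those of Cyp1a2 (359 ± 79.2) and Cyp2a5 (348 ± 73.4). In HFCF HuRHep-/- it was also the second (444 ± 39.4), overlapping Cyp2a5 (388 ± 82.0). In HFCF WT Glul was the third, at 359 ± 33.3, between Cyp2a5 (379 ± 79.4) and Oat (326 ± 88.0), whose intervals both overlapped it. These orders are on a level per exon length, and the fold changes below are per gene on the CPM scale.

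**Figure D1:**
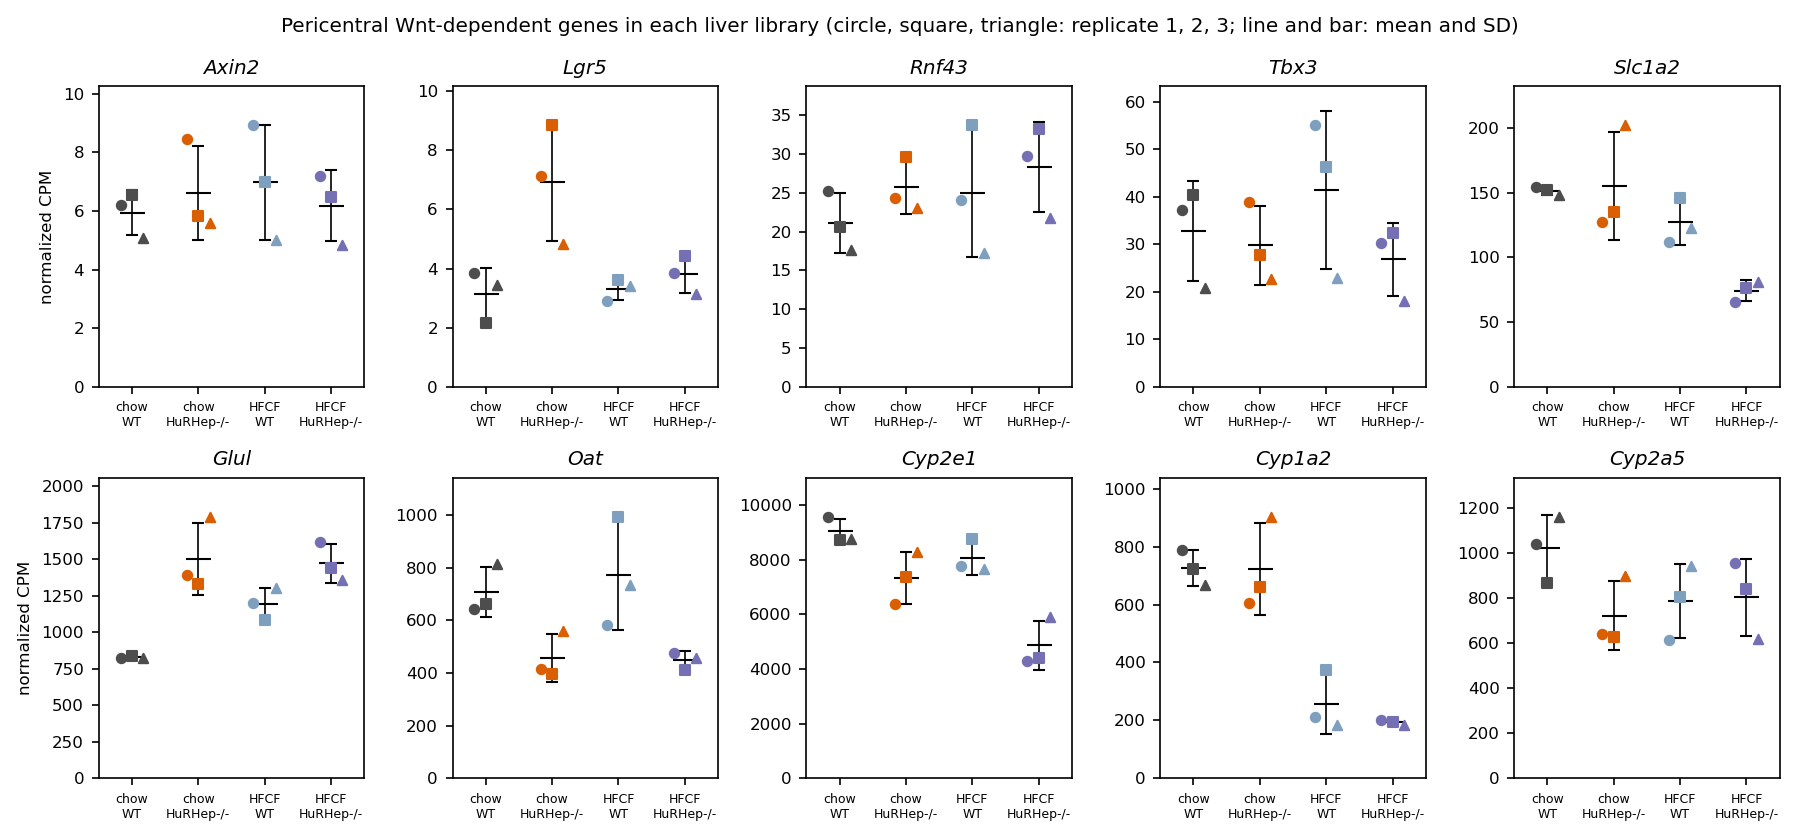
Normalized CPM (y axis, linear from 0) of each of the 10 genes in the 12 liver libraries, with 4 groups on the x axis. Circles, squares and triangles are replicates 1, 2 and 3, the horizontal line is the group mean and the bar its SD. Glul sits at 822 to 836 CPM in chow WT and at 1330 to 1790 in chow HuRHep-/-, and Cyp1a2 is lower in both HFCF groups than in both chow groups.

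Promoter sequence was looked at for letters that TCF/LEF factors recognize. RefSeq promoters (GRCm38.p6) were found for 8 of the 10 members, and for Cyp2a4, the close relative of Cyp2a5. The 250 bases before each RefSeq start were searched for CTTTGAT or CTTTGAA on either strand, and for TATAAA on the strand of the gene. Rnf43 has a pair of starts, which makes 9 windows. The TCF letters were in 3 windows, those of Slc1a2, Cyp2e1 and Cyp1a2, and TATAAA was also in 3, those of Cyp2a5, Cyp2e1 and Cyp1a2. Of 32851 promoters of that length, 7.48% hold the TCF letters and 7.59% hold TATAAA. The windows of Glul, Axin2, Oat and Rnf43 hold neither. Shown here are the windows of Glul, of the 3 members with TCF letters and of the Cyp2a5 and Cyp2a4 pair, 5′ to 3′ on the strand of the gene, with matches in capitals. They lie at chr1:153899679-153899928 (plus strand), chr2:102706188-102706437 (plus), chr7:140763569-140763818 (plus), chr9:57683656-57683905 (minus), chr7:26835089-26835338 (plus) and chr7:26306942-26307191 (plus). The Slc1a2 window belongs to a start inside the annotated gene.
Glul: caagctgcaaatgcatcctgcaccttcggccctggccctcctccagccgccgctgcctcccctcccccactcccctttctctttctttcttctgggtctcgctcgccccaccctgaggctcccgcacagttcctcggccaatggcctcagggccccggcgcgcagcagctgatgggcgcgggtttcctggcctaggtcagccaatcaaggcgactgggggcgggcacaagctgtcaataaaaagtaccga
Slc1a2: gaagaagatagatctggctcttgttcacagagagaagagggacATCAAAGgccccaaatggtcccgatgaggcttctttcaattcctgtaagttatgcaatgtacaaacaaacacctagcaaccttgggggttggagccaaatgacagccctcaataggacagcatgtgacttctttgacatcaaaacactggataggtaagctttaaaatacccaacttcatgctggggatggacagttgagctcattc
Cyp2e1: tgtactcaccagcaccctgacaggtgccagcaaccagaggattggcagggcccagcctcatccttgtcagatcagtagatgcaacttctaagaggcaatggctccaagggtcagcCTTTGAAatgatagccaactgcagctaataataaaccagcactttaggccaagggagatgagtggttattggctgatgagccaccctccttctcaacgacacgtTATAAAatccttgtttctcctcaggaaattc
Cyp1a2: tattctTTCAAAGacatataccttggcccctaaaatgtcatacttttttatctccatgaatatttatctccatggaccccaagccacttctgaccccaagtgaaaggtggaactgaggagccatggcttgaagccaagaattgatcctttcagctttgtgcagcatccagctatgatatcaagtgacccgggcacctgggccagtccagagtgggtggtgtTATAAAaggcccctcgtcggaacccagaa
Cyp2a5: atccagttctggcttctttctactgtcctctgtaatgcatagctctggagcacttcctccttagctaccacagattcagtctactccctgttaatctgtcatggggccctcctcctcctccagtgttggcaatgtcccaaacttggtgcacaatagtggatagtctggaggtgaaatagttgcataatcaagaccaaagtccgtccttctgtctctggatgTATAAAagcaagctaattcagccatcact
Cyp2a4: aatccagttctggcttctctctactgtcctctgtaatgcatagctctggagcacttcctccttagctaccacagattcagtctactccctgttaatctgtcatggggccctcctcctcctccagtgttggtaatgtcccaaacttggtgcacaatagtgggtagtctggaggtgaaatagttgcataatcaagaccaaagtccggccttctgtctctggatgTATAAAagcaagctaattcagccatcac

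In Slc1a2 the match ATCAAAG began at position -207 from the start, in Cyp2e1 CTTTGAA at -135 and in Cyp1a2 TTCAAAG at -244. The windows of Cyp2a5 and Cyp2a4 were 97.6% identical over 251 aligned columns, with 4 mismatches and 2 gap columns. A match is a description of the letters in this window and not of a bound site.

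The first comparison asked how the members differ between genotypes on chow. Of 10 members, 1, Glul, was called higher in HuRHep-/- livers (called: adjusted p no larger than 0.05, fold change 1.5 or more, and 10 or more counts summed over each group), against 1.28% of 13526 genes tested, and 0 were called lower, against 0.954%. The groups did not overlap for 4 members, against 29.5% of all genes. Of the 10, 5 had a positive and 5 a negative log2 fold change, with a median of -0.01 beside 0.01 over all genes.

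Glul (chromosome 1, 153899944 to 153909723, plus strand, GRCm38) encodes glutamine synthetase, the ammonia-fixing enzyme confined to hepatocytes at the central vein. Its level was 822, 836 and 823 CPM in chow WT replicates 1, 2 and 3, and 1390, 1330 and 1790 CPM in chow HuRHep-/-. Every HuRHep-/- library was above every WT library. Means were 827 ± 7.66 and 1500 ± 248 CPM (SD, n = 3 each), a 1.81-fold difference (log2 fold change 0.85, SE 0.12, limma adjusted p = 0.0131). The call was lost without WT replicate 1 (adjusted p = 0.0546), without WT replicate 3 (adjusted p = 0.0618) or without HuRHep-/- replicate 2 (adjusted p = 0.0519), with log2 fold changes of 0.85 to 0.94. Of the words of 31 bases in its longest transcript, 23.4% also occur in other genes, 18.5% in the pseudogene Glns-ps1, so some of its reads could have been counted elsewhere.

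Lgr5 (chromosome 10, 115450311 to 115587780, minus strand), a receptor for R-spondins, was at 3.85, 2.17 and 3.43 CPM in chow WT and at 7.13, 8.85 and 4.83 CPM in chow HuRHep-/-. The groups did not overlap, but the spread among the HuRHep-/- libraries was wide. Its log2 fold change of 1.14 (SE 0.28) was the largest of the 10 and did not pass the test (adjusted p = 0.0623). It passed in 1 of 6 fits with a library left out, that without HuRHep-/- replicate 3 (1.38, adjusted p = 0.0398), and the 6 estimates ran from 0.90 to 1.38 with adjusted p up to 0.209. Of 10 other settings 1 called it, the fit on all 12 libraries (1.13, adjusted p = 0.0219). The raw counts behind it were 65 to 117 in WT and 157 to 286 in HuRHep-/-.

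Oat (chromosome 7, 132557478 to 132576398, minus strand), the ornithine aminotransferase of mitochondria, pointed the other way. Its level was 642, 661 and 815 CPM in chow WT and 414, 396 and 561 CPM in chow HuRHep-/-, without overlap. The log2 fold change was -0.63 (SE 0.15), short of the threshold (adjusted p = 0.0564). With a library left out it ran from -0.79 to -0.53 (adjusted p = 0.0218 to 0.198), and only the fit without HuRHep-/- replicate 3 called it. Cyp2e1, which oxidizes ethanol and acetaminophen, also had no overlap, at 9570, 8730 and 8770 CPM in WT against 6380, 7380 and 8280 in HuRHep-/-, with a log2 fold change of -0.30 (adjusted p = 0.274). Cyp2a5, a coumarin hydroxylase, was at 1040, 866 and 1160 CPM in WT and 640, 626 and 896 in HuRHep-/- (log2 fold change -0.51, adjusted p = 0.115). With a library left out it ran from -0.67 to -0.42 (adjusted p = 0.0391 to 0.319), and again only the fit without HuRHep-/- replicate 3 called it. These 3 genes are metabolic enzymes with negative estimates, and of 10 settings other than leaving out a library 2 called Oat and 0 called Cyp2e1 or Cyp2a5.

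The remaining members overlapped between genotypes on chow. Axin2, the scaffold of the destruction complex and a direct target of the pathway, was at 5.07 to 6.55 CPM in WT and 5.57 to 8.46 in HuRHep-/- (log2 fold change 0.14, adjusted p = 0.68). Rnf43, a ubiquitin ligase that removes Wnt receptors, was at 17.6 to 25.2 and 23.1 to 29.6 CPM (0.29, adjusted p = 0.269). Tbx3 was at 20.8 to 40.3 and 22.7 to 38.9 CPM (-0.11, adjusted p = 0.84). Cyp1a2, the caffeine-demethylating P450, gave -0.02 and Slc1a2, a glutamate transporter of the plasma membrane, gave 0.01, with standard errors of 0.15 and 0.16.

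**Figure D2:**
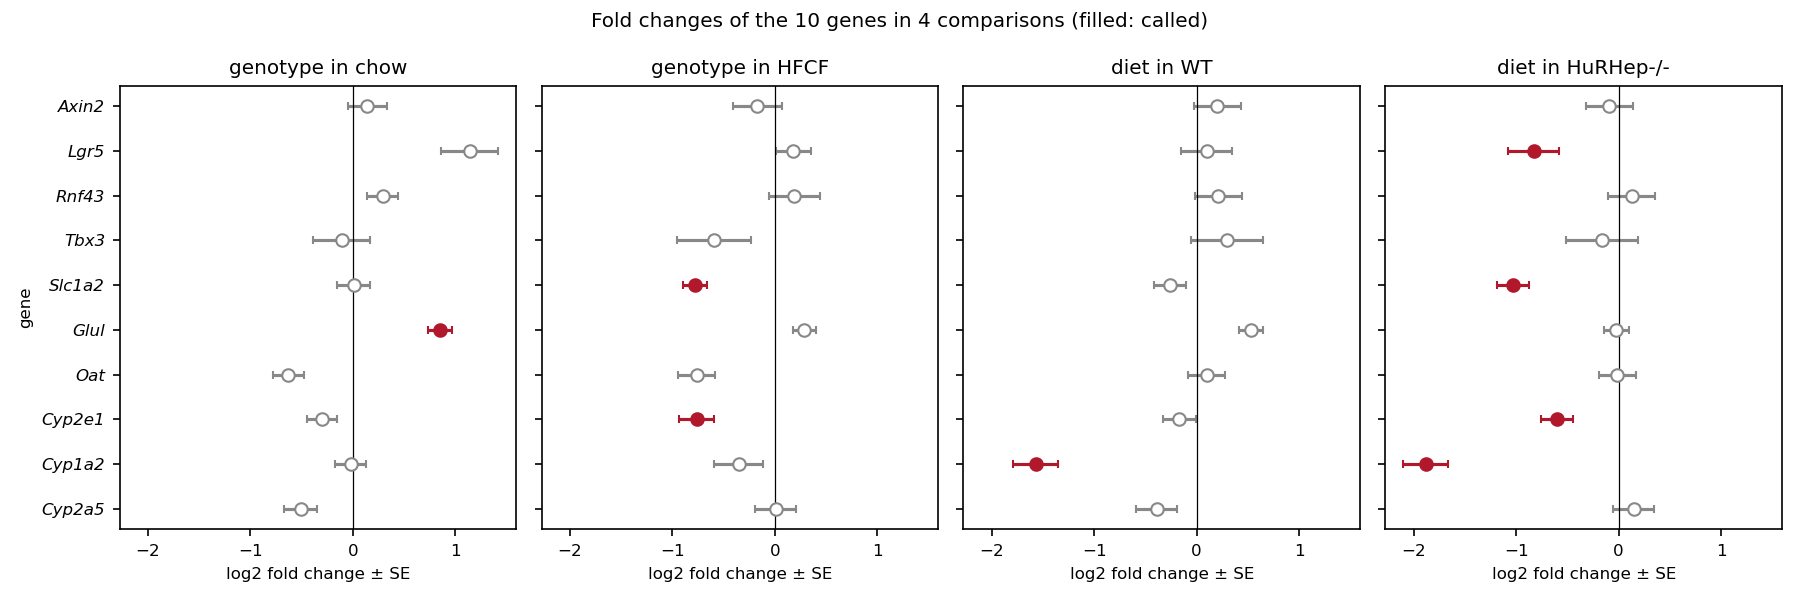
Log2 fold change (x axis) with its standard error for each of the 10 genes (y axis) in 4 comparisons, from limma; filled points were called. Only Glul is filled for genotype in chow (0.85), Slc1a2 and Cyp2e1 for genotype in HFCF (-0.78 and -0.76), Cyp1a2 for diet in WT (-1.57), and Lgr5, Slc1a2, Cyp2e1 and Cyp1a2 for diet in HuRHep-/-.

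In HFCF livers the called members were Slc1a2 and Cyp2e1, both lower in HuRHep-/-. With the replicate number as a block they were Slc1a2 and Tbx3, both lower. HFCF HuRHep-/- livers had 2 of 10 members called lower, against 1.46% of 14295 genes tested, and 0 called higher, against 2.2%. The groups did not overlap for 4 members, against 36.8% of all genes. The median log2 fold change of the members was -0.26 beside -0.0011 over all genes.

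Slc1a2 (chromosome 2, 102658659 to 102790784, plus strand) was at 112, 146 and 123 CPM in HFCF WT and at 65.4, 76.2 and 81.3 CPM in HFCF HuRHep-/-. All 3 HuRHep-/- libraries were below all 3 WT libraries. Means were 127 ± 17.4 and 74.3 ± 8.13 CPM (SD, n = 3), and the log2 fold change was -0.78 (SE 0.12, adjusted p = 0.0217). The call was lost without WT replicate 1 (adjusted p = 0.0508) and without any 1 of the 3 HuRHep-/- replicates (adjusted p = 0.0911, 0.0836 and 0.0539).

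Cyp2e1 (chromosome 7, 140763739 to 140774987, plus strand) was at 7750, 8750 and 7670 CPM in HFCF WT and at 4290, 4390 and 5900 CPM in HFCF HuRHep-/-, again without overlap. Means were 8050 ± 601 and 4860 ± 906 CPM (SD, n = 3), and the log2 fold change was -0.76 (SE 0.17, adjusted p = 0.0464). With the replicate number as a block it was not called (-0.76, adjusted p = 0.0634), nor with any 1 library left out (-0.90 to -0.67, adjusted p = 0.0599 to 0.182). Its promoter window above holds both CTTTGAA and TATAAA.

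Oat was at 583, 993 and 734 CPM in HFCF WT and at 477, 413 and 457 CPM in HFCF HuRHep-/-, without overlap (log2 fold change -0.76, SE 0.18, adjusted p = 0.0521). It passed in the fit on 12 libraries (-0.75, adjusted p = 0.026) and with voom weights (-0.76, adjusted p = 0.0473). Glul was at 1200, 1080 and 1300 CPM in WT and 1620, 1440 and 1360 in HuRHep-/-, a log2 fold change of 0.29 (SE 0.11, adjusted p = 0.132). The lowest HuRHep-/- library was thus just above the highest WT library.

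Tbx3 (chromosome 5, 119670669 to 119684724, plus strand) had a wide spread between libraries, with a coefficient of variation of 40% in HFCF WT. Its levels were 55.1, 46.4 and 23 CPM in HFCF WT and 30.2, 32.3 and 18.1 CPM in HFCF HuRHep-/-, which overlap (log2 fold change -0.59, SE 0.36, adjusted p = 0.303). With the replicate number as a block Tbx3 was called lower (-0.59, SE 0.11, adjusted p = 0.0359). Axin2 (-0.17), Lgr5 (0.18), Rnf43 (0.19), Cyp1a2 (-0.35) and Cyp2a5 (0.01) overlapped between genotypes, with adjusted p from 0.365 to 0.97.

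The blocked fit of Tbx3 goes with a pattern across replicate numbers, noticed after the values were seen. In all 4 groups the library numbered 3 was the lowest of its group for Axin2, Tbx3 and Rnf43. This held for 3 of 10 members and for 2.18% of the 14535 genes tested in both tables. For replicate numbers 1 and 2 it held for 0 members, and for 1.95% and 1.75% of the genes. Among the pathway genes listed, Fzd4, a Wnt receptor, and Sp5, a target of the pathway, also had replicate 3 lowest in all 4 groups, while Wnt5b had replicate 1 lowest and the kinase Gsk3b replicate 2. Among the other pericentral genes, Slco1b2 had replicate 1 and Cyp2a4 replicate 2 lowest in all 4 groups. The labels do not say what a replicate number stands for.

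**Figure D3:**
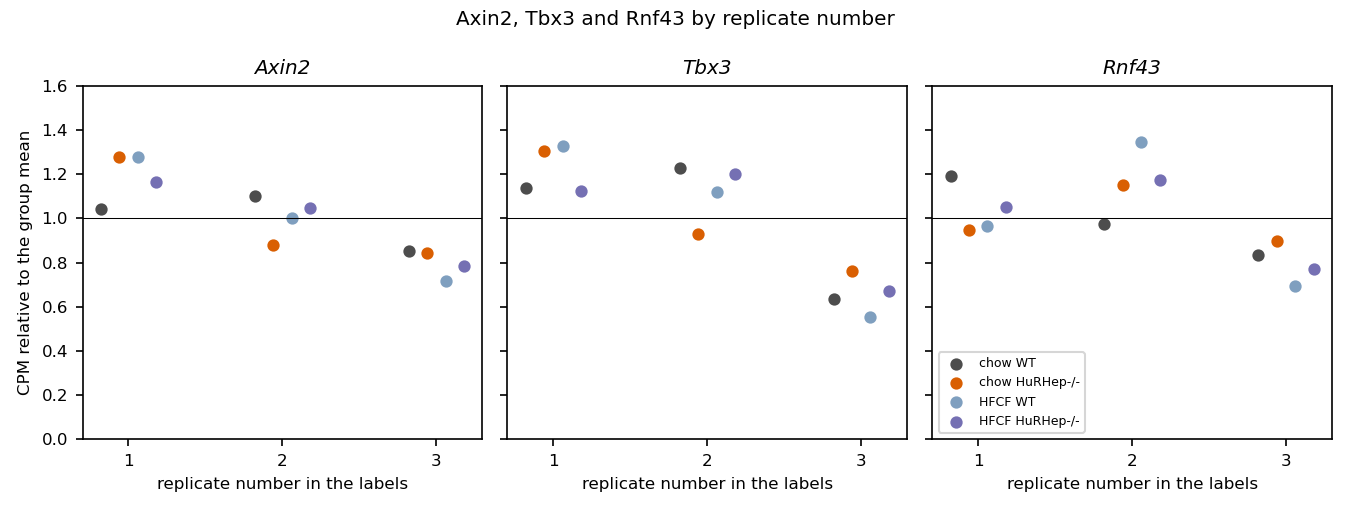
CPM of Axin2, Tbx3 and Rnf43 relative to the mean of their group (y axis, linear from 0), by the replicate number in the labels (x axis), 1 point per library in 4 colours for the groups. In each panel the 4 points at number 3 lie below the line of the group mean.

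Whether the genotype difference changed with diet was tested as an interaction over 12 libraries. Of 10 members 0 passed limma's test, and of 14535 genes also 0 (0%), although 2084 genes had an unadjusted p under 0.05. With voom weights 1 gene passed, which was not a member. Of the members, 9 had a negative estimate, a median of -0.37 beside 0.0048 over all genes. Of the members 3 had an unadjusted p under that limit, Slc1a2 (-0.77, adjusted p = 0.199), Glul (-0.54, adjusted p = 0.209) and Lgr5 (-0.94, adjusted p = 0.273). The differing calls in the diets are therefore not shown to be a difference between diets. With 3 libraries against 3, an exact permutation test of a single gene cannot give a p under 0.1.

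The diet comparisons set HFCF against chow within a genotype. They share the libraries of the genotype comparisons, and diet coincides with the count table, so diet and anything else that differs between the tables cannot be told apart. In WT livers 1 of 10 members was called lower on HFCF, against 3.24% of 14535 genes, and 0 were called higher, against 6.17%. In HuRHep-/- livers 4 of 10 were called lower, against 4.9%, and 0 higher, against 14.2%. The members' median log2 fold change was 0.10 in WT and -0.12 in HuRHep-/-, beside 0.01 and 0.0027 over all genes. Markers of other cells also rose with diet. In HuRHep-/- livers 7 of 7 stellate, 5 of 5 recruited macrophage, 4 of 4 cholangiocyte, 4 of 9 endothelial, 3 of 6 Kupffer, 3 of 6 lymphocyte and 0 of 2 neutrophil markers were called higher. In WT livers 4 of 5 recruited macrophage, 2 of 6 Kupffer and 1 of 7 stellate markers were called higher, and 0 markers of the other 4 lists. Their part in the members' values was not tested.

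Cyp1a2 (chromosome 9, 57676937 to 57683703, minus strand) fell in both genotypes. Its level was 787, 724 and 666 CPM in chow WT and 211, 375 and 183 CPM in HFCF WT. The groups did not overlap, and the means were 726 ± 60.5 and 256 ± 104 CPM (SD, n = 3; log2 fold change -1.57, SE 0.22, adjusted p = 0.00101). In HuRHep-/- livers it was at 604, 659 and 903 CPM on chow and at 201, 193 and 185 CPM on HFCF (-1.88, SE 0.22, adjusted p = 0.000234). It was called in each of the 12 fits with 1 library left out in either genotype. The receptor of its inducers, Ahr, had log2 fold changes with diet of 0.25 in WT (adjusted p = 0.62) and -0.53 in HuRHep-/- (adjusted p = 0.235). In its transcript, 7.96% of words of 31 bases are shared with Cyp1a1.

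Slc1a2 fell from 127, 135 and 202 CPM in chow HuRHep-/- to 65.4, 76.2 and 81.3 CPM in HFCF HuRHep-/-, without overlap (log2 fold change -1.03, SE 0.16, adjusted p = 0.000735). In WT it was at 154, 152 and 148 CPM on chow and 112, 146 and 123 on HFCF (-0.26, adjusted p = 0.245). In HuRHep-/- livers Cyp2e1 fell from 7340 ± 952 to 4860 ± 906 CPM (SD, n = 3; -0.60, SE 0.16, adjusted p = 0.0126), while in WT the estimate was -0.17 (adjusted p = 0.482). The Cyp2e1 call was lost in 3 of 12 fits with 1 library left out, those without chow HuRHep-/- replicate 3 (-0.51, adjusted p = 0.0455, under the fold limit) and without HFCF HuRHep-/- replicate 1 (-0.52, adjusted p = 0.0603) or 2 (-0.54, adjusted p = 0.0518).

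Lgr5 fell in HuRHep-/- livers, from 7.13, 8.85 and 4.83 CPM on chow to 3.84, 4.43 and 3.15 on HFCF without overlap (log2 fold change -0.83, SE 0.25, adjusted p = 0.0209). The call was lost in 4 of 12 fits with 1 library left out, those without chow replicate 1 or 2 or HFCF replicate 1 or 3 of HuRHep-/- (adjusted p = 0.0512 to 0.0831). In WT livers Lgr5 was at 2.17 to 3.85 CPM on chow and 2.9 to 3.6 on HFCF (0.10, adjusted p = 0.797). The chow HuRHep-/- level was thus the high one of the 4 groups.

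Glul differed from these 4 genes. In WT livers it was at 822 to 836 CPM on chow and at 1080 to 1300 on HFCF, without overlap (log2 fold change 0.53, SE 0.12, adjusted p = 0.00871). It stayed short of the fold limit at 1.44-fold, so it is not among the calls. In HuRHep-/- livers its log2 fold change with diet was -0.02 (adjusted p = 0.923), with chow levels already as high as 1330 to 1790 CPM. Chow WT was the group apart, and the other 3 groups had means of 1190 to 1500 CPM.

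Oat (0.10 and -0.01), Axin2 (0.20 and -0.09), Rnf43 (0.21 and 0.13), Tbx3 (0.30 and -0.16) and Cyp2a5 (-0.39 and 0.15) were not called with diet in WT or in HuRHep-/- livers (adjusted p = 0.178 to 0.976). Axin2 (chromosome 11, 108920349 to 108950783, plus strand) kept within 4.85 to 8.92 CPM over all 12 libraries, and Rnf43 (chromosome 11, 87662722 to 87735539, plus strand) within 17.3 to 33.7 CPM. These are pathway genes with low counts, 155 to 338 reads per library for Axin2.

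Genes whose profile over the 12 libraries was most like that of Glul and Axin2 were picked by the mean absolute difference of centred log2 CPM, among 10200 genes with a mean of at least 100 normalized counts. The 3 nearest to Glul were Coro7 (0.11), Slc12a4 (0.114) and Gpd2 (0.126), beside a median of 0.36 over all genes. All 3 had their lowest mean in chow WT, which follows from how they were picked and is no separate evidence about Glul. Gpd2, the mitochondrial glycerol phosphate dehydrogenase, was at 25.1 ± 0.912 CPM there and 38.8 ± 0.968 in chow HuRHep-/- (SD, n = 3). The 3 nearest to Axin2 were Zfp810 (0.0959), 4931414P19Rik (0.105) and Repin1 (0.112), beside a median of 0.268.

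HuR binds AU-rich elements in untranslated regions, so the word ATTTA was counted in the longest annotated region after the stop codon of each gene. All 10 members have such a region of at least 100 bases, and 8 hold ATTTA, beside 71.2% of 13092 genes. Cyp1a2 had 2 in 291 bases, 6.87 per kb, a density above that of 98.3% of genes. Lgr5 had 8 in 1703 bases (4.70 per kb) and Oat 3 in 692 bases (4.34 per kb). Slc1a2 had the most, 16 in 9250 bases, at 1.73 per kb, while Glul had 2 in 1541 bases (1.30 per kb), near the median of 1.24 per kb. Cyp2e1 and Cyp2a5 had 0. Among the genes called for genotype, Glul and Slc1a2 hold the word and Cyp2e1 does not. A word count is a description and not a binding site.

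The other genes of the pathway were read from lists chosen by name. Over all genes tested, genotype called 1.28% higher and 0.954% lower on chow, and 2.2% and 1.46% on HFCF. Diet called 6.17% higher and 3.24% lower in WT, and 14.2% and 4.9% in HuRHep-/- livers. Of the Wnt ligands, R-spondins and secretion genes, 0 of 9 tested were called for genotype on chow and 0 of 10 on HFCF, with median log2 fold changes of 0.19 and 0.27. Wnt2 and Wnt9b, the ligands of central vein endothelium, were at 1.52 ± 0.741 and 0.526 ± 0.224 CPM in chow WT (SD, n = 3), and Rspo3 at 4.36 ± 0.606. Of these, 0 were called in any comparison, with genotype log2 fold changes of -0.10 to 0.34 on chow and 0.02 to 0.25 on HFCF. With a library left out, signs changed for the pair of ligands: on chow Wnt2 ran from -0.49 to 0.27 and Wnt9b from -0.26 to 0.86, both lowest without HuRHep-/- replicate 3, and on HFCF Wnt2 ran from -0.14 to 0.22. With diet, Wnt5b rose (1.01, adjusted p = 0.0201) and Porcn, which acylates Wnts, fell (-0.77, adjusted p = 0.0266) in WT livers. Each of these calls was kept in 9 of 12 fits with a library left out. The Wnt5b groups overlapped, at 3.19 to 8.49 CPM on chow and 8.26 to 10.5 on HFCF, and its estimate was 1.42 without chow WT replicate 2. In HuRHep-/- livers Wnt5a (1.56), Wnt4 (1.21) and Wls (0.98), the Wnt carrier, rose and 1 gene, Porcn, fell (-0.94). The Wnt4 call was kept in 9 of 12 fits with a library left out. In the same comparison the stellate and endothelial markers had median log2 fold changes of 1.07 and 0.67, and their part in these levels was not tested.

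Of 10 Wnt and R-spondin receptors, 1 was called higher on chow, the co-receptor Lrp5 (log2 fold change 0.78, adjusted p = 0.011), from 37.1 ± 3.47 to 63.4 ± 6.22 CPM (SD, n = 3). Lrp5 was also higher on HFCF without overlap (0.56, adjusted p = 0.038), but short of the fold limit at 1.48-fold. On HFCF 1 was called lower, Fzd4 (-0.63, adjusted p = 0.0444), a call that only 1 of 6 fits with a library left out kept. With diet 0 of 10 were called in WT, and 2 fell in HuRHep-/- livers, Fzd6 (-1.05, adjusted p = 0.00667) and Lgr4 (-0.86, adjusted p = 0.000184), the R-spondin receptor related to Lgr5. In WT Lgr4 also fell, short of the fold limit (-0.56 to -0.41 with a library left out, adjusted p up to 0.0263). The list's medians for genotype were 0.05 on chow and -0.18 on HFCF. Lgr4 was at 49.4 ± 3.73 CPM in chow and 27.3 ± 2.46 in HFCF HuRHep-/- livers (SD, n = 3).

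Of 17 genes for beta-catenin, its destruction complex and TCF/LEF partners, 0 were called for genotype on either diet (16 were tested on HFCF), with medians of 0.08 and 0.01. Ctnnb1, beta-catenin itself, was at 148 ± 1.87 CPM in chow WT and 148 ± 5.43 in chow HuRHep-/- (SD, n = 3), with log2 fold changes for genotype of 0.01 on chow (SE 0.056) and 0.02 on HFCF (SE 0.054). Tcf7l2, the main TCF of hepatocytes, gave 0.31 (adjusted p = 0.15) and 0.13 (adjusted p = 0.494). With diet 1 gene of this list was called in each genotype, the coactivator Bcl9l (0.63 in WT and 0.78 in HuRHep-/-). Of 12 inhibitors, 8 passed the filter on low counts on chow (median 0.15) and 7 on HFCF (median 0.47), and Dkk3 was called higher on HFCF (0.95, adjusted p = 0.0464; kept in 1 of 6 fits with a library left out). Notum, a secreted lipase that strips Wnts, passed the limit on adjusted p but not the fold limit, from 37.6 ± 2.57 to 49.1 ± 3.14 CPM on chow (SD, n = 3; 0.39, adjusted p = 0.0359) and from 23 ± 3.55 to 34.5 ± 1.67 on HFCF (0.58, adjusted p = 0.0354), without overlap on either diet. On HFCF 4 of 10 other settings called it higher, and 1 of 6 fits with a library left out did. Znrf3, the partner of Rnf43, gave 0.07 on chow and -0.22 on HFCF for genotype. With diet in WT, the feedback inhibitor Nkd1 rose (0.77, adjusted p = 0.00762) and Notum fell (-0.72, adjusted p = 0.000993), and in HuRHep-/- livers Dkk3 (1.03) and Nkd1 (0.70) rose. Notum fell there too, short of the fold limit (-0.55 to -0.46 with a library left out, adjusted p up to 0.0149).

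**Figure D4:**
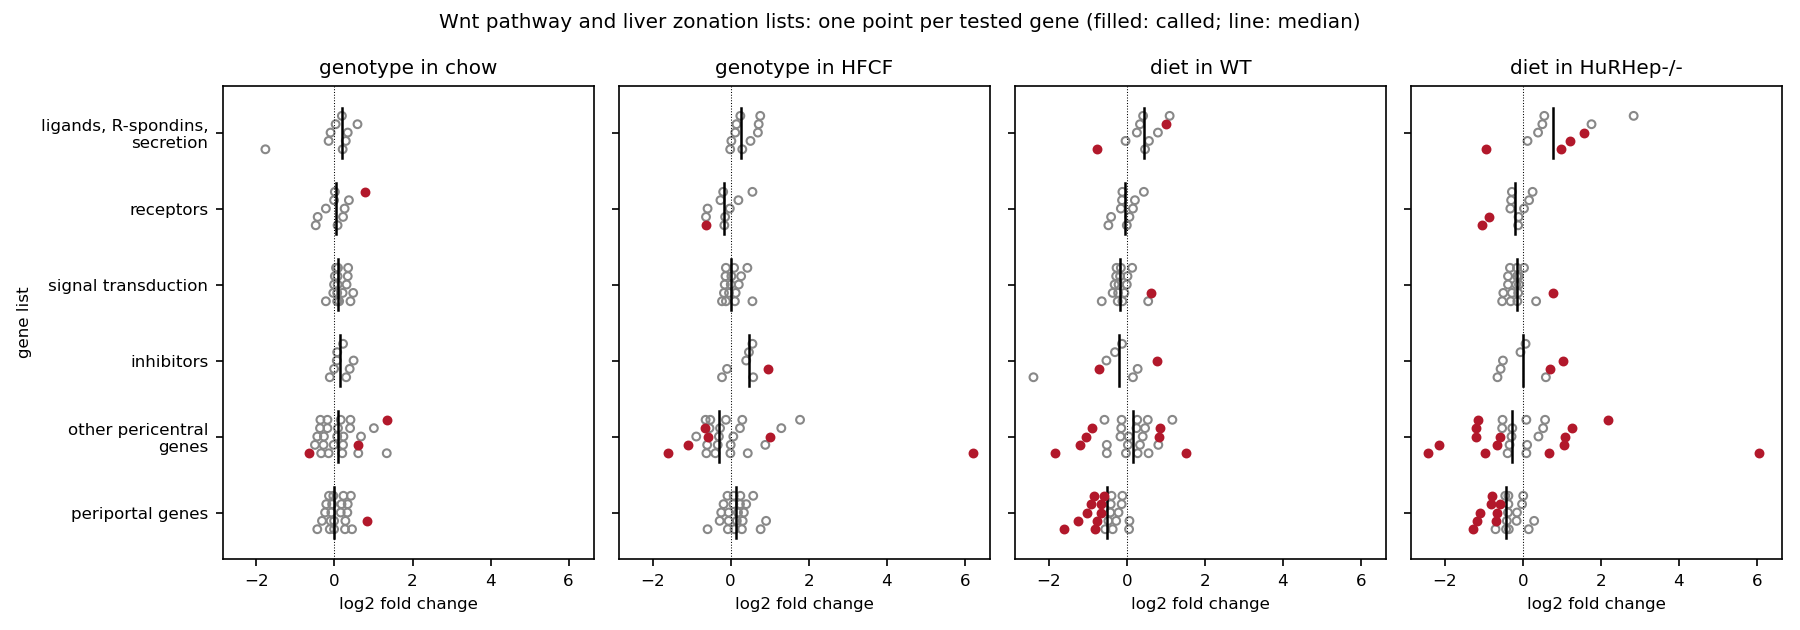
Log2 fold change (x axis) of every tested gene of 6 lists (y axis) in 4 comparisons, 1 point per gene with vertical position inside a list only for legibility; filled points were called and the black line is the list's median. Periportal genes have 10 called lower with diet in WT and 8 in HuRHep-/-, and the point near 6 is Cyp2a4.

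Other pericentral genes moved in both directions. Of 26, 2 were called higher on chow, the dicarboxylate transporter Slc13a3 (1.34, adjusted p = 0.00384) and Ang (0.61, adjusted p = 0.0224), and 1 lower, Cyp2c54 (-0.65, adjusted p = 0.0356), with a median of 0.08. On HFCF 2 were called higher and 4 lower with a median of -0.28, and Cyp2c54 (-1.61, adjusted p = 0.0281) and Cyp8b1 (-1.09, adjusted p = 0.029), the sterol hydroxylase of cholic acid synthesis, had the largest falls. Each kept its call in 3 of 6 fits with a library left out (adjusted p up to 0.109 and 0.12). With the replicate number as a block, 6 were called lower, Cyp7a1 (-0.88, adjusted p = 0.0355) and Slc16a10 (-0.60, adjusted p = 0.0284) among them. With diet 3 were higher and 4 lower in WT, against 6.17% and 3.24% of all genes. In HuRHep-/- 6 were higher and 8 lower, against 14.2% and 4.9%. Of 22 periportal genes, 1 was called for genotype on chow, Cdh1 (0.84, adjusted p = 0.0219), and 0 on HFCF, with medians of -0.01 and 0.13. With the block on HFCF, Cyp2f2 was called lower (-0.59, adjusted p = 0.0401) and Sds higher (0.91, adjusted p = 0.0315). With diet 10 of these periportal genes fell in WT, against 3.24% of all genes, and 8 in HuRHep-/-, against 4.9%. The medians were -0.51 and -0.42, and Etnppl was among those that fell (-1.62 and -1.29). Without a library, Cyp2c54 kept its call on chow in 1 of 6 fits, Ang in 2, Cdh1 in 2 and Slc13a3 in 6. With the block on chow Cyp2c54 was not called (-0.65, adjusted p = 0.0503).

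Cyp2a5 (chromosome 7, 26835305 to 26843548, plus strand) has a near copy, Cyp2a4 (chromosome 7, 26307169 to 26315088, plus strand), a steroid hydroxylase, and reads of the pair may be split. Of words of 31 bases in the Cyp2a5 transcript, 48.2% also occur in Cyp2a4, and 55.9% the other way. Cyp2a4 was at 0.686, 0.427 and 8.61 CPM in HFCF WT and at 155, 81.1 and 88.9 CPM in HFCF HuRHep-/-. The HuRHep-/- libraries were all above the WT libraries, of which replicate 3 stood above the other 2. The log2 fold change was 6.21 (SE 1, adjusted p = 0.0244), 7.54 without WT replicate 3 (adjusted p = 0.000511), and the call was lost in 4 of 6 fits with 1 library left out (adjusted p up to 0.113). On chow Cyp2a4 was at 0.723 ± 0.447 CPM in WT and 1.61 ± 0.543 in HuRHep-/- (SD, n = 3; log2 fold change 1.34, adjusted p = 0.2).

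Cyp2a5 itself was at 612, 806 and 940 CPM in HFCF WT and 953, 838 and 619 CPM in HFCF HuRHep-/-, overlapping groups with a log2 fold change of 0.01 (SE 0.2, adjusted p = 0.97). With the counts of the pair summed it was 0.19 (adjusted p = 0.564), and on chow -0.51 (adjusted p = 0.115), so no call changed. Nr1i3, the nuclear receptor CAR that induces several of these enzymes, gave -0.28 on chow (adjusted p = 0.299) and -0.62 on HFCF (adjusted p = 0.0886) for genotype.

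**Figure D5:**
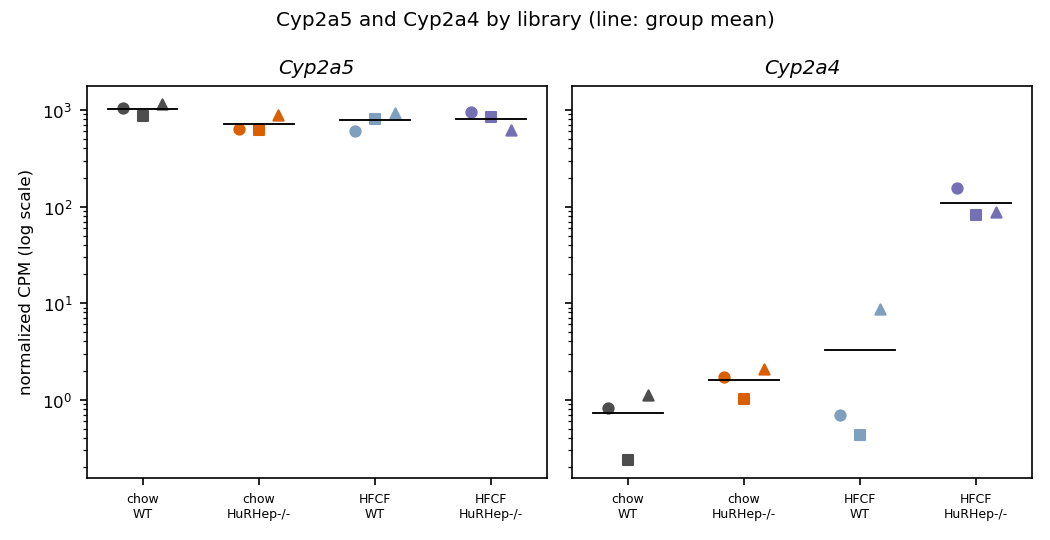
Normalized CPM (y axis, log scale) of Cyp2a5 and its near copy Cyp2a4 in the 12 libraries by group; circles, squares and triangles are replicates 1, 2 and 3 and lines are group means. Cyp2a4 is at 81.1 to 155 CPM in HFCF HuRHep-/- and at 8.61 or less in all other libraries, while the groups of Cyp2a5 lie close together.

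Markers of other liver cells were compared between genotypes on HFCF. Of 4 tested cholangiocyte markers 2 were called higher in HuRHep-/-, against 2.2% of all genes, and 0 markers of the other 6 lists were called. With the replicate number as a block, 4 cholangiocyte, 2 recruited macrophage and 1 stellate cell marker were called higher. The summed level of 7 stellate cell markers was 165 to 373 CPM in HFCF WT and 366 to 459 in HFCF HuRHep-/-, and that of 5 recruited macrophage markers 105 to 244 and 256 to 411. For 6 Kupffer cell markers the ranges were 213 to 341 and 301 to 483, for 5 cholangiocyte markers 7.88 to 11.7 and 17.4 to 26.9, and for 6 lymphocyte markers 2.08 to 3.25 and 5.09 to 6.38. The 9 endothelial markers were at 98.8 to 116 and 115 to 122, and the 2 neutrophil markers at 0.739 to 0.921 and 1.43 to 1.77, and no marker was at 0 throughout a group. The ranges of the stellate, Kupffer and endothelial sums overlapped between genotypes and those of the other 4 did not. Among single genes 36.8% did not overlap on HFCF. A sum follows its most abundant genes, such as Spp1 (158 ± 51.3 CPM) and Lyz2 (140 ± 17.3) for recruited macrophages in HFCF HuRHep-/- (SD, n = 3). On chow the Kupffer sum was 140 to 175 in WT and 195 to 284 in HuRHep-/-, and the hepatocyte sum was lower in HuRHep-/- as given above. That hepatocyte sum is mostly Alb, at 74100 ± 9220 CPM in chow WT and 52600 ± 2930 in chow HuRHep-/- (SD, n = 3; limma adjusted p = 0.359). Of 7 hepatocyte markers 0 were called for genotype and 2 were lower with diet in each genotype (medians -0.54 and -0.47). The part of these cells in the values of Cyp2e1, Slc1a2, Lgr5 and Cyp1a2 was not tested, and in bulk liver fewer pericentral hepatocytes and less RNA per cell cannot be told apart.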

How the data were processed

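Total RNA was sequenced in 12 liver libraries (NEBNext stranded). With CLC Genomics Workbench, the authors mapped reads to GRCm38.p6 (local and reverse strand settings) and deposited raw counts per gene in 2 tables, 1 for each diet. These deposited values, other than plain counts in form, are whole counts, with large values written as text with a digit comma. A count model could take them without the comma, but none was run. The comma was removed and 0 values were not whole. CPM were scaled by TMM factors written anew (trims 0.3 and 0.05) and tested as log2 CPM with a pseudocount of 0.5 in limma 3.58.1 (R 4.3.3) with a variance trend and Benjamini-Hochberg adjustment over all genes tested. Genes needed the equivalent of 10 counts in at least 3 libraries and 15 in all. Calls followed the study's criteria, adjusted p no larger than 0.05 and fold change 1.5 or more, with 10 or more counts summed over each group in place of its RPKM limit. Each diet was fitted on 6 libraries, and the interaction and the diet effects on 12. The main fit of each comparison was tested on counts simulated with a fixed spread. The alternative fits were not tested in this way.

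Members and lists were chosen with earlier results of these data known. The genes named are the members, Elavl1, 10 fixed pathway genes, up to 3 called genes with the largest change per list and comparison, and the 3 genes most like Glul and Axin2. Fzd4, Sp5, Wnt5b, Gsk3b, Slco1b2 and Cyp2a4 by replicate number, Cyp7a1, Slc16a10 and Sds with the block, and Porcn in HuRHep-/- livers were named after their values were seen. The counts of called genes per list with the block were added after seeing the data. Deviations of same-numbered WT and HuRHep-/- libraries from their group means correlated at 0.18, 0.30 and 0.14 on HFCF and at -0.003, 0.19 and 0.03 on chow. All values and calls are from fits without the replicate number unless given as blocked. On HFCF, where every correlation was over 0.1, blocked values are given where a call changed. The labels do not say whether the numbers mark pairs. Positions are from GENCODE for GRCm38 and promoters from RefSeq. Shared words and sequence counts were computed in Python 3.11.15. Alternatives covered upper-quartile and RLE factors, the filter, a pseudocount of 2, voom weights, the block, other sets of libraries, no fold limit, summed Cyp2a5 and Cyp2a4, and leaving out each library. The authors' filter on genes without counts was not stated in the sources used here.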

Additional observations from a re-analysis of the deposited data

How the results depend on the processing

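The members' estimates were kept in sign and side of the threshold in 885 of 960 comparisons with an alternative, and those that changed sign were uncalled. On chow, 2 members were called in place of 1 with upper-quartile factors (Oat, adjusted p = 0.0485), with the replicate block (Oat, -0.63, adjusted p = 0.0218) and in the fit on 12 libraries (Lgr5), and 0 to 4 with 1 library left out. On HFCF, 1 in place of 2 was called with upper-quartile factors (Cyp2e1, -0.71, adjusted p = 0.0542), 3 with voom weights and in the fit on 12 libraries (Oat as well), and 0 to 1 with a library left out. For diet in WT it was 2 in place of 1 without the fold and count limits (Glul), and 1 to 2 with a library left out. For diet in HuRHep-/- it was 2 to 4 in place of 4 with a library left out, and the call of Cyp2e1 was also lost to the fold limit with upper-quartile factors (-0.52) and with at least 10 counts in every library (-0.57). Beyond Cyp2e1 and Tbx3 on HFCF and Oat on chow, the replicate block changed no member's call. Over all genes, calls ran with 1 library left out from 8 (without HuRHep-/- replicate 2) to 320 beside 302 on chow, from 28 (without HuRHep-/- replicate 1) to 848 (without WT replicate 3) beside 523 on HFCF, from 850 (without chow WT replicate 1) to 1786 beside 1368 for diet in WT, from 2153 to 2862 beside 2772 for diet in HuRHep-/-, and up to 41 (without HFCF WT replicate 3) beside 0 in the interaction, and 764 genes were called on HFCF with the block. For diet 3514 and 5650 genes passed without the fold and count limits, beside 1368 in WT and 2772 in HuRHep-/-. The cause of these changes was not tested.

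Signs also changed in these uncalled members with 1 library left out. On chow the log2 fold changes ran from -0.05 to 0.26 (Axin2), -0.41 to 0.07 (Tbx3), -0.19 to 0.09 (Cyp1a2) and -0.20 to 0.13 (Slc1a2). On HFCF they ran from -0.38 to 0.04 (Axin2), -0.14 to 0.20 (Cyp2a5) and -0.04 to 0.43 (Rnf43). In the interaction they ran from -0.29 to 0.09 (Oat), -0.52 to 0.00095 (Cyp1a2) and -0.32 to 0.16 (Rnf43). For diet in WT they ran from -0.14 to 0.27 (Lgr5), -0.10 to 0.28 (Oat) and -0.03 to 0.45 (Rnf43). For diet in HuRHep-/- they ran from -0.10 to 0.11 (Glul), -0.21 to 0.09 (Axin2), -0.33 to 0.11 (Tbx3), -0.10 to 0.15 (Oat) and -0.0038 to 0.30 (Rnf43). Other sign changes were Slc1a2 on chow with upper-quartile factors (-0.0011) and in the fit on 12 libraries (-0.00024), and for diet in HuRHep-/- Glul (0.06 and 0.02) and Oat (0.07 and 0.03) with upper-quartile factors and with at least 10 counts in every library. At 65 to 338 reads per library, Lgr5 and Axin2 had the fewest counts.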
